A study of Mus musculus with 14 samples.

Results

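Autophagy and mitophagy machinery is described here through 35 genes, a named list. It runs from the kinases that start autophagy to the receptors that hand cargo to it. No measured value served as a rule for the list, but it was chosen with earlier results of these data known. Of these, 34 were measured among the 18193 genes of the arrays, and Optn was not analysed here. The arrays read mRNA bound to ribosomes of dopaminergic neurons, the dopamine-making cells of the ventral midbrain that are lost in Parkinson's disease. In a RiboTag mouse a chosen cell type carries a tagged ribosomal protein, so its ribosomes and the mRNA on them can be purified from homogenized tissue. The Tfr1-null animals carried a deletion in dopaminergic neurons of Tfr1, the receptor that takes up transferrin-bound iron and that the gene Tfrc encodes. All animals of both genotypes were F2 mice of 129Sv and C57BL/6 on the RiboTag background, the controls were heterozygous for the Tfr1 allele, and the labels name no Cre line for the deletion. Control and Tfr1-null libraries numbered 3 and 4 at 3 weeks of age, and 4 and 3 at 10 weeks. Separate animals are not named for the replicates in the labels, so the p values measure the spread between these libraries, which may be technical.

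Autophagy encloses part of the cytoplasm in a double membrane, the autophagosome, and delivers it to the lysosome for breakdown. The ULK kinases start the process, a lipid kinase complex around Beclin 1 marks the membrane, and a pair of ubiquitin-like conjugation reactions couples LC3 and GABARAP proteins to the growing membrane, where receptors dock the cargo. Mitophagy is the selective removal of mitochondria by this route, and ferritin, which stores iron, is also broken down through autophagy. In dopaminergic neurons the pathway is known from inherited Parkinson's disease, in which the mitophagy gene Pink1 can be mutated.

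The signals are log2 values as the authors deposited them, so a difference of 1 is a doubling. Array medians were 6.41 to 6.47 in the 3 week libraries but 7.36 to 7.43 in those of 10 weeks. Values of different ages are therefore not on the same scale, and genotypes were compared within each age. Between ages only these genotype differences were compared. A pair of libraries went against their labels by the targeted gene. At the Tfrc 5′ control probe set, the library labelled Tfr1-null 3 weeks 1 read 9.67, beside 9.50 to 9.59 in the controls and 6.88 to 7.73 in the other Tfr1-null libraries of that age, and its source name also says control. At the middle Tfrc control probe set, the library labelled control 10 weeks 1 read 11.43, beside 11.39 to 11.69 in the Tfr1-null libraries and 9.17 to 9.86 in the other controls of that age. Each comparison was therefore made once on all 14 libraries by label and once on 12, 3 per group, that leave this pair out. The members themselves did not separate the pair clearly. The library labelled Tfr1-null 3 weeks 1 was nearer to the controls for 21 of 34 members, against 63.8% of all genes, and the library labelled control 10 weeks 1 was nearer to the Tfr1-null libraries for 19 of 34, against 58.4%. Every member lay above its array's 25th percentile in every library. The number of arrays limits the precision, and the 95% interval of a member's difference had a median width of 0.64 log2 units with 12 libraries.

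Promoter sequences are shown for the 4 members with the largest decreases in mean signal at 10 weeks with 12 libraries, Atg10, Atg7 and Atg5 of the conjugation machinery and the mitophagy receptor Fundc1. Each is the stretch of 150 bases that ends just before the gene's start site, from RefSeq on build GRCm38.p6, written 5′ to 3′ along the strand of the gene. Capitals mark CACGTG, the E-box that forms the core of the site of TFEB, a transcription factor of autophagy and lysosome genes. The stretches lie at chr13:91223988-91224137 on the minus strand for Atg10, chr6:114670946-114671095 on the plus strand for Atg7, chr10:44268189-44268338 on the plus strand for Atg5 and chrX:17572008-17572157 on the minus strand for Fundc1.
Atg10: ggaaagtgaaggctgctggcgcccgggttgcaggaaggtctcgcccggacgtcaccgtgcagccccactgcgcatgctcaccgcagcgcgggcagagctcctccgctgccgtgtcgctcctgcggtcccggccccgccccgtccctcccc
Atg7: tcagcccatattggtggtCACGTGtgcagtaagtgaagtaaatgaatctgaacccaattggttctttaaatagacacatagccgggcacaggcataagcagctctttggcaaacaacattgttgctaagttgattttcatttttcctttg
Atg5: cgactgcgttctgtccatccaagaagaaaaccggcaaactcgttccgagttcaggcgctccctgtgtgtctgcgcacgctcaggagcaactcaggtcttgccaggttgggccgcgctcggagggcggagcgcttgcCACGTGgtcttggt
Fundc1: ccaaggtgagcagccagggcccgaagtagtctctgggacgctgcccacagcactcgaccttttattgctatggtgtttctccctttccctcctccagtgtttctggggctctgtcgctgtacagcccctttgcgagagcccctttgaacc
The G and C content of these stretches was 74% for Atg10, 62% for Atg5, 58% for Fundc1 and 40.7% for Atg7, against a median of 54% over all promoters. The RefSeq promoter table held 29 of the 34 measured members, in windows from 250 bases before to 50 bases after a start site. On either strand, CACGTG occurred in the windows of 5 of these 29 (17.2%), namely Atg14, Atg3, Atg5, Atg7 and Tbk1, against 8.09% of 27025 genes. It began 132 bases before the start site in Atg7 and 14 bases before it in Atg5. The shorter ACGTG, the core of the site of hypoxia-inducible factor, which every CACGTG contains, occurred in 14 of 29 members (48.3%) against 21.8% of genes. TGATGNAA, an element bound by the stress factor ATF4, occurred in 0 of 29 members, against 4.51% of genes. The differences between the shares of members and of all genes were not tested, and the windows were not matched for G and C content. These matches describe letters in a window and say nothing of which factor binds there.

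At 10 weeks, 3 of the 34 members fell in the Tfr1-null libraries and none rose, when limma's adjusted p over all genes was held to 0.05 with 12 libraries. These were Atg10, Atg7 and Fundc1, at 8.82% of the members. Over all 18193 genes the same rule called 11.1%, of which 4.73% of genes were higher and 6.34% lower, so the members' share of calls in both directions was not above that of all genes. In the lower direction alone it was 8.82% of members against 6.34% of all genes, and that difference was not tested. The 2015 genes behind the 11.1% became 244 with each age fitted alone and 801 with array weights, and the cause was not tested. With all 14 libraries the rule called 0 members at 10 weeks, where 1.21% of all genes were called. That count of 220 genes was 5 to 1924 when 1 library was left out, the highest without control 10 weeks 1. At an unadjusted p under 0.05 limma had 7 of 34 members (20.6%) with 14 libraries and 9 of 34 (26.5%) with 12, against 19.9% and 26.4% of all genes, so these shares lay near the background. The median difference over the members at 10 weeks was -0.03 with either set, against -0.01 over all genes with 12 libraries and -0.02 with 14, and the differences ran from -1.63 to 0.55 with 12. Leaving out 1 library moved the members' median between -0.064 and -0.0057 with 12 libraries and between -0.044 and 0.013 with 14, where it was above 0 without control 10 weeks 3, and the mean of all probe sets gave 0.045 with 14.

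At 3 weeks limma called no member with either set of libraries. With 14 libraries 0% of all genes were called and 2 of 34 members (5.88%) had an unadjusted p under 0.05, against 4.67% of all genes. With 12 libraries 1.84% of all genes were called, 0.682% higher and 1.16% lower, and 5 of 34 members (14.7%) had an unadjusted p under 0.05, against 10.6% of all genes. The smallest adjusted p of a member was 0.152, for Atg10. The 335 genes behind the 1.84% became 918 with each age fitted alone and 1360 with array weights, and the cause was not tested. Differences with 12 libraries ran from -0.47 for Atg7 to 0.47 for Tfeb, with a median of -0.02 against 0.01 over all genes.

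Members whose genotypes did not overlap were counted beside the same count over all genes. With 12 libraries all Tfr1-null values lay above all control values for 5 members and below them for 5 at 3 weeks, and above for 2 and below for 9 at 10 weeks. Over all genes 25% did not overlap at 3 weeks (13.3% above, 11.6% below) and 22.5% at 10 weeks (9.87% above, 12.7% below). With 14 libraries 2 members lay above and 3 below at 3 weeks, and 1 above and 4 below at 10 weeks, where 8.16% and 10.1% of all genes did not overlap. Of all genes, 3.64% lay above and 4.52% below at 3 weeks with 14 libraries, and 4.48% and 5.58% at 10 weeks. With both directions together the members' share was the larger in each of these 4 counts. At 10 weeks the share of members above was smaller than that of all genes with either set, and the share below was larger. These differences were not tested.

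**Figure D1:**
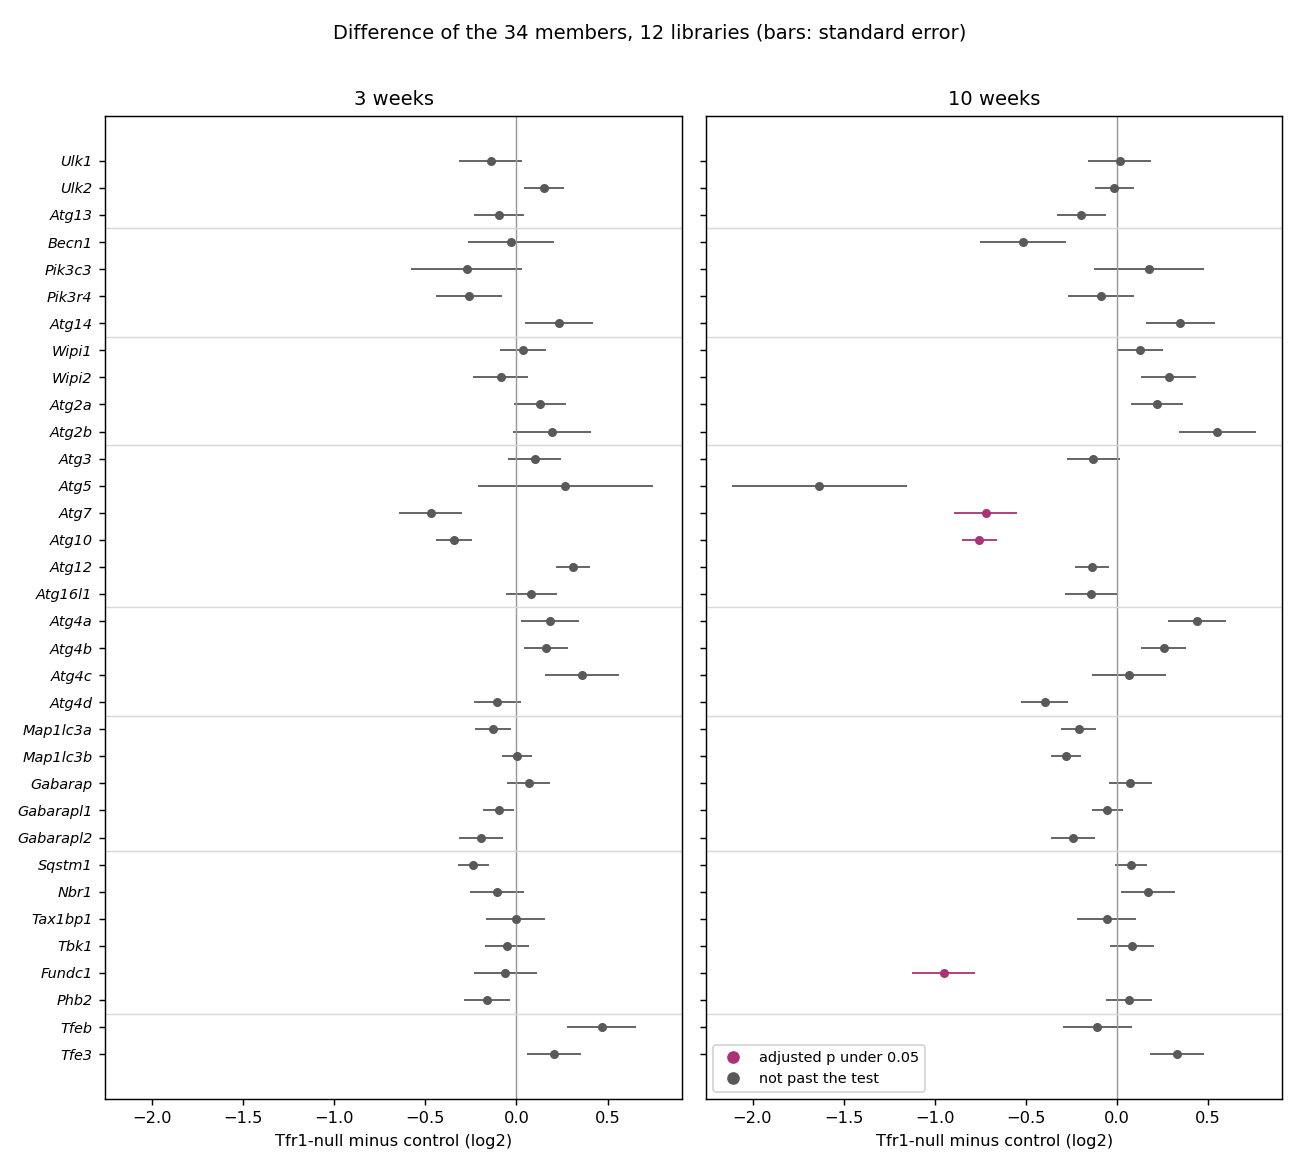
Difference between Tfr1-null and control libraries in log2 units for each of the 34 measured members at 3 weeks (left) and 10 weeks (right), 12 libraries, ordered by role. Points are limma estimates, bars are standard errors and purple marks an adjusted p under 0.05, which Atg7, Atg10 and Fundc1 reached at 10 weeks. Atg5 has the largest standard error, 0.48.

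The conjugation enzymes were the group with the most called members. ATG7 is the E1-like enzyme that activates both ATG12 and LC3, ATG10 and ATG3 are the E2-like enzymes that pass on ATG12 and LC3, and ATG12 joined to ATG5 acts with ATG16L1 to place LC3 on the membrane. At 10 weeks with 12 libraries 2 of the 6 fell, Atg10 and Atg7. This was 33.3%, against 6.34% of all genes called lower and 11.1% called in either direction. The group was singled out for its calls, and the difference between these shares was not tested. The differences of all 6 were negative, with a median of -0.43. With 14 libraries all 6 were negative as well, with a median of -0.34, and none was called. At 3 weeks 4 of the 6 were positive with 12 libraries.

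Atg10 read 10.28, 10.34 and 10.17 in control 10 weeks 2, 3 and 4, and 9.48 in the library labelled control 10 weeks 1. It read 9.55, 9.51 and 9.46 in the 3 Tfr1-null libraries of that age. The Tfr1-null values lay close together and below those 3 controls, while the doubtful control lay among them. With 12 libraries the means were 10.26 ± 0.0866 (SD, n = 3) and 9.51 ± 0.0449 (SD, n = 3), a 1.69-fold fall of -0.75 log2 units (SE 0.0983, limma adjusted p 0.00102). With 14 libraries the difference was -0.56 (SE 0.169, adjusted p 0.106).

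At 3 weeks Atg10 read 9.09, 9.15 and 9.32 in controls and 8.84, 8.85, 8.96 and 8.72 in Tfr1-null libraries, so the genotypes did not overlap with either set. The difference there was -0.34 (SE 0.0983) with 12 libraries and did not pass the test (adjusted p 0.152). Only 1 probe set reads Atg10.

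Atg7 read 10.06, 10.32 and 10.69 in control 10 weeks 2, 3 and 4, 9.41 in the library labelled control 10 weeks 1, and 9.35, 9.72 and 9.84 in the Tfr1-null libraries. The 3 controls lay above all Tfr1-null values, and the doubtful control lay near the lowest of them. With 12 libraries Atg7 fell 1.65-fold, by -0.72 (SE 0.174, limma adjusted p 0.0245, n = 3 and 3), and with 14 libraries the difference was -0.48 (SE 0.26, adjusted p 0.327). The call was lost without control 10 weeks 4 (-0.56, adjusted p 0.0594) and without Tfr1-null 10 weeks 1 (-0.58, adjusted p 0.0761).

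At 3 weeks Atg7 read 9.89, 10.04 and 9.99 in controls and 9.59, 9.28 and 9.63 in Tfr1-null 3 weeks 2, 3 and 4, with 10.13 in the library labelled Tfr1-null 3 weeks 1. Those 3 Tfr1-null values lay below all controls and the doubtful one lay above them. The difference with 12 libraries was -0.47 (SE 0.174), with adjusted p 0.313.

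Atg7 is read by 4 probe sets, and a second, 1428610_at, gave a like difference with a smaller error. At 10 weeks it read 10.17, 10.20 and 10.33 in control 10 weeks 2, 3 and 4 and 9.49, 9.67 and 9.59 in the Tfr1-null libraries. The library labelled control 10 weeks 1 read 9.34, below all of the Tfr1-null values. Without that library the probe set fell by -0.65 (SE 0.0971, limma adjusted p 0.00298 over all probe sets, 12 libraries). At 3 weeks it read 9.20, 9.22 and 9.35 in controls and 8.71, 8.89 and 8.72 in Tfr1-null 3 weeks 2, 3 and 4, a fall of -0.48 (SE 0.0971, adjusted p 0.0462). The library labelled Tfr1-null 3 weeks 1 read 9.16 there, just under the controls. A probe set of the same gene thus passed the test at 3 weeks where the brighter one, 1428612_at, did not. A dimmer probe set, 1428611_at, gave -0.94 at 10 weeks (SE 0.266, adjusted p 0.051). The last, 1446633_at, lay under the 25th percentile of the array in all 6 libraries at 10 weeks, with a difference of -0.07.

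Atg5 had the most uneven controls of all members. It read 8.75, 9.13, 11.60 and 10.58 in control 10 weeks 1 to 4 and 8.24, 9.09 and 9.09 in the Tfr1-null libraries, an SD of 1.32 over the 4 controls. Control 10 weeks 2 lay just above the Tfr1-null values, and control 10 weeks 3 and 4 lay far above them. The difference was -1.63 with 12 libraries (SE 0.479, limma adjusted p 0.0524). Without control 10 weeks 2 it was -2.29 (adjusted p 0.00227), and without control 10 weeks 3 it was -1.05 (adjusted p 0.12).

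The remaining conjugation genes passed no test at 10 weeks. Atg12 read 10.98, 11.12 and 11.11 in control 10 weeks 2, 3 and 4, 11.32 in the library labelled control 10 weeks 1 and 10.92, 10.98 and 10.89 in Tfr1-null libraries, with values near each other. At 3 weeks Atg12 read 10.19, 10.12 and 10.36 in controls and 10.54, 10.59 and 10.47 in Tfr1-null 3 weeks 2, 3 and 4, all above the controls, and 10.18 in the library labelled Tfr1-null 3 weeks 1. Its difference at 3 weeks was 0.31 with 12 libraries (SE 0.0918, limma adjusted p 0.168). Atg3 and Atg16l1 differed by -0.13 and -0.14 at 10 weeks.

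**Figure D2:**
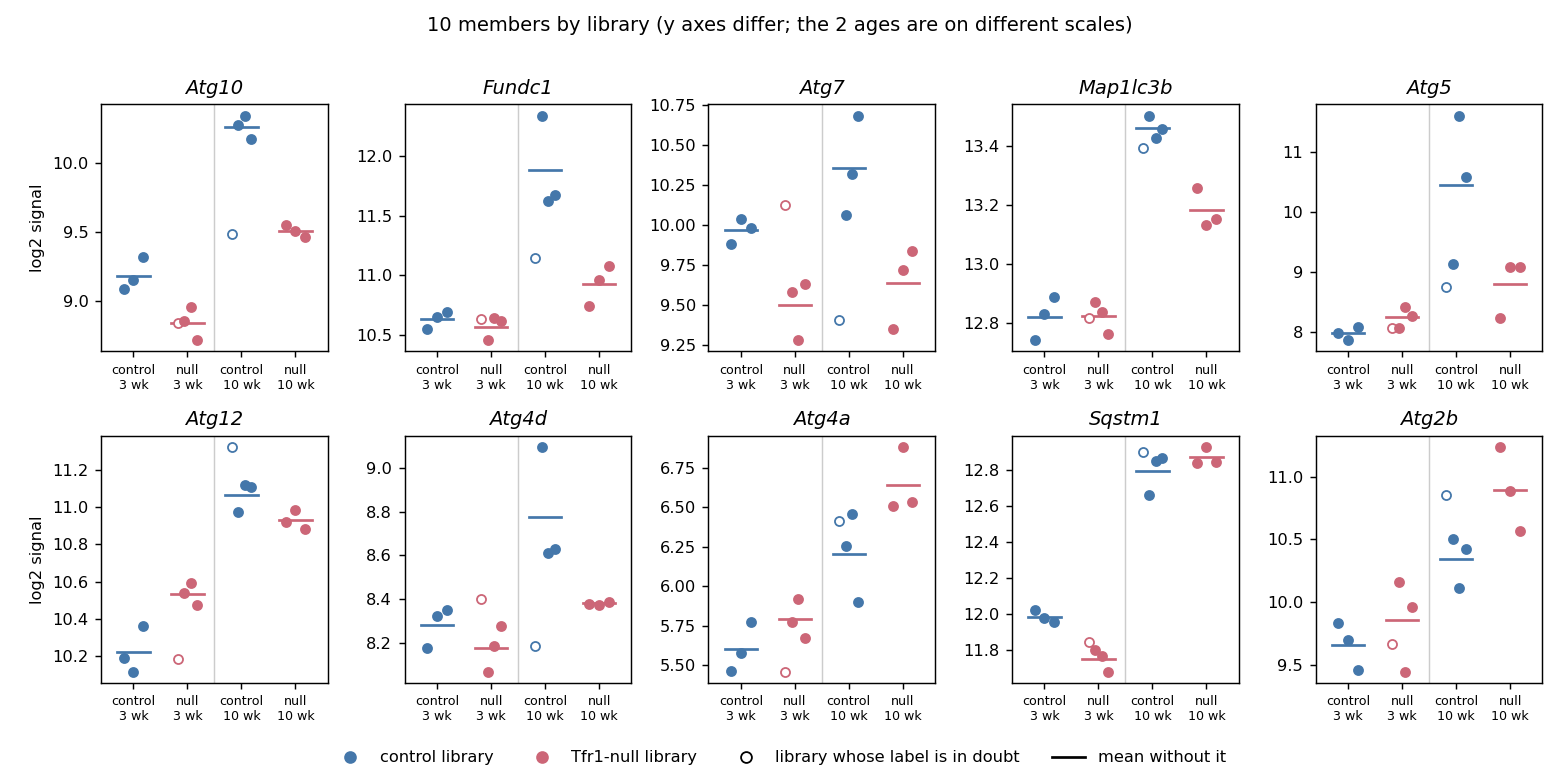
Log2 signal of 10 members in every library, by genotype and age, with control libraries in blue and Tfr1-null libraries in red. Open circles are the 2 libraries whose labels are in doubt and bars are the means without them. At 10 weeks the Tfr1-null values of Atg10 lie between 9.46 and 9.55, together with the open circle of the controls at 9.48.

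Fundc1, an outer mitochondrial membrane protein that binds LC3 and acts as a mitophagy receptor in hypoxia, fell at 10 weeks. It read 12.34, 11.63 and 11.68 in control 10 weeks 2, 3 and 4, 11.15 in the library labelled control 10 weeks 1, and 10.74, 10.96 and 11.08 in Tfr1-null libraries. All controls lay above all Tfr1-null values, the doubtful one by little. With 12 libraries the means were 11.88 ± 0.396 (SD, n = 3) and 10.93 ± 0.169 (SD, n = 3), a 1.93-fold fall of -0.95 (SE 0.172, limma adjusted p 0.00652). With 14 libraries the difference was -0.77 (SE 0.203, adjusted p 0.0755).

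The other probe sets of Fundc1 gave smaller differences that did not pass the test. At 10 weeks 1453369_a_at read 11.08, 10.91 and 11.16 in control 10 weeks 2, 3 and 4 and 10.91, 10.90 and 10.99 in Tfr1-null libraries. The genotypes overlapped, with a difference of -0.12 with 12 libraries (SE 0.0932, limma adjusted p 0.491). The library labelled control 10 weeks 1 read 11.50 there, above every other library of that age. The probe set 1436278_at read 10.05, 10.82 and 10.12 in control 10 weeks 2, 3 and 4, 9.86 in the library labelled control 10 weeks 1 and 9.86, 9.98 and 9.93 in Tfr1-null libraries. The 3 controls lay above all Tfr1-null values there and the doubtful one did not, and the difference was -0.40 with 12 libraries (SE 0.174, adjusted p 0.18). All 3 probe sets of Fundc1 had negative differences, and 1 of the 3 passed the test. At 3 weeks Fundc1 read 10.55, 10.66 and 10.69 in controls and 10.64, 10.46, 10.64 and 10.62 in Tfr1-null libraries, and the genotypes overlapped.

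The other cargo receptors and Tbk1, the kinase that phosphorylates several of them, did not pass the test at either age through their brightest probe sets. Sqstm1 encodes p62, which binds ubiquitin and LC3. At 3 weeks it read 12.02, 11.98 and 11.95 in controls and 11.84, 11.80, 11.77 and 11.68 in Tfr1-null libraries. All Tfr1-null values lay below all controls, the doubtful library included, with a difference of -0.24 with 12 libraries (SE 0.0862, limma adjusted p 0.305). At 10 weeks it read 12.90, 12.66, 12.85 and 12.87 in controls and 12.84, 12.93 and 12.84 in Tfr1-null libraries, which overlapped.

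Nbr1, another ubiquitin-binding receptor, differed by 0.17 at 10 weeks with 12 libraries (SE 0.147, limma adjusted p 0.517). Its dimmer probe set 1451897_a_at read 10.00, 10.11 and 10.54 in control 10 weeks 2, 3 and 4 and 10.72, 10.68 and 11.30 in Tfr1-null libraries, with all Tfr1-null values above. That probe set rose by 0.68 (SE 0.186, limma adjusted p 0.0444 over all probe sets). The library labelled control 10 weeks 1 read 11.05 there, within the Tfr1-null range. Tax1bp1, Tbk1 and Phb2, the inner membrane mitophagy receptor prohibitin 2, differed by -0.06, 0.08 and 0.07 at 10 weeks.

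The LC3 and GABARAP family are the ubiquitin-like proteins that are joined to the autophagosome membrane. None of the 5 passed the test at either age through its brightest probe set. At 10 weeks with 12 libraries 4 of the 5 differences were negative, with a median of -0.21. All Tfr1-null values lay below all controls for Map1lc3a, Map1lc3b and Gabarapl2, as they did for 12.7% of all genes. The difference between these shares was not tested.

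Map1lc3b encodes LC3B, the usual marker of autophagosomes. At 10 weeks it read 13.39, 13.50, 13.43 and 13.46 in controls and 13.26, 13.13 and 13.15 in Tfr1-null libraries. All 4 controls lay above all Tfr1-null values. The difference was -0.28 with 12 libraries (SE 0.0818, limma adjusted p 0.0521) and missed the threshold. At 3 weeks it read 12.74, 12.83 and 12.89 in controls and 12.82, 12.87, 12.84 and 12.77 in Tfr1-null libraries, and the genotypes overlapped.

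A second probe set passed the test for Map1lc3a and for Gabarapl2. For Map1lc3a, 1451290_at read 13.09, 13.33 and 13.47 in control 10 weeks 2, 3 and 4 and 12.66, 12.61 and 12.72 in Tfr1-null libraries, a fall of -0.63 (SE 0.12, limma adjusted p 0.0095 over all probe sets). The brighter 1447883_x_at gave -0.21 and did not pass (adjusted p 0.223). For Gabarapl2, 1441376_at read 11.69, 11.59 and 11.62 in control 10 weeks 2, 3 and 4 and 11.28, 11.26 and 11.35 in Tfr1-null libraries, a fall of -0.34 (SE 0.0824, adjusted p 0.0294). The brighter 1423187_at gave -0.24 (adjusted p 0.254). The genotypes did not overlap in either of these dimmer probe sets, and the library labelled control 10 weeks 1 read 12.75 and 11.49 in them, above the Tfr1-null values. Gabarap and Gabarapl1 differed by 0.07 and -0.05.

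**Figure D3:**
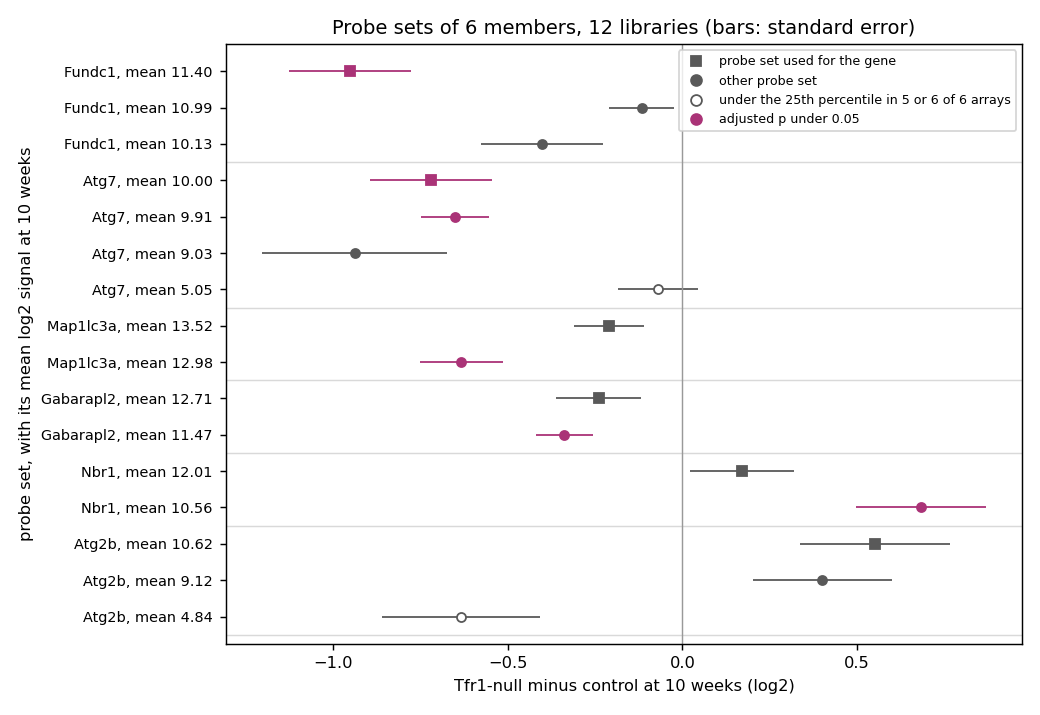
Difference between Tfr1-null and control libraries at 10 weeks in log2 units for every probe set of 6 members, 12 libraries, with standard errors as bars. Squares are the probe set used for the gene, purple marks an adjusted p under 0.05 over all probe sets, and open circles lie under the 25th percentile in 5 or 6 of the 6 arrays. Fundc1 passes through 1 of 3 probe sets and Atg7 through 2 of 4.

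Over the 26 members with several probe sets, 36 of 50 other probe sets had the sign of the brightest one at 10 weeks with 12 libraries, and 34 of 50 at 3 weeks. Of the 50, 5 at 10 weeks and 7 at 3 weeks lay under the 25th percentile of the array in every library.

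The Atg4 proteases trim LC3 and GABARAP proteins before conjugation and later release them from the membrane. None of the 4 passed the test at either age. At 10 weeks with 12 libraries Atg4a was above and Atg4d below in every Tfr1-null library. Atg4a read 6.25, 6.46 and 5.90 in control 10 weeks 2, 3 and 4, 6.41 in the library labelled control 10 weeks 1 and 6.51, 6.88 and 6.54 in Tfr1-null libraries. All 4 controls lay below the Tfr1-null values, with a difference of 0.44 (SE 0.158, limma adjusted p 0.103). Atg4d read 9.10, 8.61 and 8.63 in control 10 weeks 2, 3 and 4, 8.18 in the library labelled control 10 weeks 1, and 8.38, 8.37 and 8.39 in Tfr1-null libraries. The doubtful control was the lowest of the 7, and the difference was -0.40 with 12 libraries (SE 0.129, adjusted p 0.0751). At 3 weeks Atg4a read 5.46, 5.57 and 5.77 in controls and 5.46, 5.77, 5.92 and 5.67 in Tfr1-null libraries, and Atg4d read 8.17, 8.32 and 8.35 in controls and 8.40, 8.07, 8.19 and 8.27 in Tfr1-null libraries, with overlap in both. Atg4b and Atg4c differed by 0.26 and 0.06 at 10 weeks and by 0.16 and 0.36 at 3 weeks.

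Upstream of conjugation no member passed the test. The initiation genes Ulk1 and Ulk2, the kinases that start autophagy, differed by 0.01 and -0.01 at 10 weeks with 12 libraries, and their partner Atg13 by -0.20 (SE 0.135, limma adjusted p 0.397). For Ulk1 the 95% interval ran from -0.37 to 0.40, and for Ulk2 from -0.25 to 0.23.

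In the class III PI3 kinase complex, Becn1, the scaffold Beclin 1, differed by -0.52 at 10 weeks (SE 0.236, limma adjusted p 0.193). It read 11.24, 12.34, 11.25 and 11.26 in controls and 11.14, 11.00 and 11.17 in Tfr1-null libraries. All controls lay above the Tfr1-null values, most by little, and control 10 weeks 2 stood more than 1 log2 unit above the other controls. The catalytic subunit Pik3c3 differed by 0.17 (SE 0.302), its regulatory partner Pik3r4 by -0.09 and the targeting subunit Atg14 by 0.35 (SE 0.189).

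WIPI proteins read the lipid mark that the kinase makes, and ATG2 proteins bridge membranes and carry lipid to the growing one. All 4 of these genes had positive differences at 10 weeks with either set of libraries, with a median of 0.25 with 12, and none was called. Atg2b read 10.51, 10.11 and 10.42 in control 10 weeks 2, 3 and 4, 10.85 in the library labelled control 10 weeks 1, and 11.24, 10.89 and 10.57 in Tfr1-null libraries. The Tfr1-null values lay above the 3 controls and overlapped the doubtful one. The difference was 0.55 with 12 libraries (SE 0.213, limma adjusted p 0.126). At 3 weeks it read 9.83, 9.69 and 9.46 in controls and 9.67, 10.16, 9.45 and 9.96 in Tfr1-null libraries, which overlapped. Of its other probe sets, 1424702_a_at gave 0.40 at 10 weeks, and 1444474_at, under the 25th percentile of the array in 5 of 6 libraries, gave -0.63. Wipi1, Wipi2 and Atg2a differed by 0.13, 0.28 and 0.22.

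Of the transcription factors that drive autophagy and lysosome genes, Tfe3 read 10.87, 11.10 and 11.05 in control 10 weeks 2, 3 and 4 and 11.30, 11.02 and 11.69 in Tfr1-null libraries. These overlapped, with a difference of 0.33 (SE 0.148, limma adjusted p 0.186, 12 libraries). Without Tfr1-null 10 weeks 2 it was 0.48 and passed (adjusted p 0.0424), and without Tfr1-null 10 weeks 3 it was 0.15 (adjusted p 0.469), so it passed in 1 of 12 fits that left out a library. Tfeb read 6.67, 6.84 and 6.92 in controls at 3 weeks and 7.13, 7.02, 7.80 and 7.02 in Tfr1-null libraries. All Tfr1-null values lay above all controls, 3 of the 4 by little, with a difference of 0.47 with 12 libraries (SE 0.19, adjusted p 0.386). At 10 weeks Tfeb differed by -0.11.

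Whether the genotype difference itself differed between ages was tested directly. This test sets log2 differences from arrays on different scales side by side, which limits its reading. No member passed, with 14 or with 12 libraries. Over all genes 0% passed with 14 libraries and 0.286% with 12. An unadjusted p under 0.05 was reached by 4 of 34 members (11.8%) with 14 libraries and 6 of 34 (17.6%) with 12, against 7.48% and 12.2% of all genes. The difference between these shares was not tested. The smallest adjusted p with 12 libraries was that of Fundc1, whose difference was lower at 10 weeks by -0.89 log2 units than at 3 weeks (SE 0.244, limma adjusted p 0.182). For Atg10 this was -0.41 (adjusted p 0.257) and for Atg12 -0.45 (adjusted p 0.2).

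Related genes outside the 35 were read from 4 further lists, and limma called none of them with 14 libraries, where 4 of 83 (4.82%) had an unadjusted p under 0.05 at 3 weeks and 20 of 83 (24.1%) at 10 weeks, against 4.67% and 19.9% of all genes. Of 13 measured genes of 16 other mitophagy genes, 1 rose at each age with 12 libraries (7.69%, against 0.682% of all genes called higher at 3 weeks and 4.73% at 10 weeks). It was Bnip3, an outer membrane mitophagy receptor and a target of hypoxia-inducible factor. At 3 weeks Bnip3 read 11.91, 11.94 and 11.99 in controls and 12.98, 13.04 and 13.01 in Tfr1-null 3 weeks 2, 3 and 4, with 11.86 in the library labelled Tfr1-null 3 weeks 1. At 10 weeks it read 13.01, 12.82 and 12.97 in control 10 weeks 2, 3 and 4 and 13.72, 13.89 and 13.84 in Tfr1-null libraries, with 13.83 in the library labelled control 10 weeks 1. The genotypes were far apart and each doubtful library lay with or beside the other genotype. Bnip3 rose by 1.06 at 3 weeks (SE 0.0864, limma adjusted p 0.000108) and by 0.88 at 10 weeks (SE 0.0864, adjusted p 0.000198). Pink1, the kinase that flags damaged mitochondria, differed by -0.14 and -0.05.

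Of 26 other autophagy genes, 1 rose at 3 weeks, and 2 rose and 1 fell at 10 weeks with 12 libraries. These were 3.85% and 11.5% of the list, against 1.84% and 11.1% of all genes called in either direction. Tmem41b, a lipid scramblase of early autophagosomes, rose at both ages. At 10 weeks it read 11.55, 11.72 and 11.79 in control 10 weeks 2, 3 and 4, 11.96 in the library labelled control 10 weeks 1 and 12.24, 12.24 and 12.10 in Tfr1-null libraries, all of which were above every control. Its rise was 0.50 at 10 weeks (SE 0.0907, limma adjusted p 0.00631) and 0.46 at 3 weeks (adjusted p 0.0271). Tollip, a ubiquitin-binding adaptor, rose by 0.38 (adjusted p 0.0337) and Atg16l2, a paralogue of Atg16l1, fell by -0.70 (adjusted p 0.0174) at 10 weeks. Ncoa4, the receptor that brings ferritin to autophagosomes, differed by -0.19 at 3 weeks and -0.11 at 10 weeks and did not pass.

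Of 27 genes of nutrient control of autophagy, 1 rose at 3 weeks (3.7%) and 2 at 10 weeks (7.41%) with 12 libraries, against 0.682% and 4.73% of all genes called higher, and the median difference at 10 weeks was 0.19 against -0.01 over all genes. Sesn2 encodes a leucine sensor that restrains mTORC1, the kinase complex that holds autophagy back. It read 9.57, 9.52 and 9.64 in control 10 weeks 2, 3 and 4 and 11.76, 11.29 and 10.93 in Tfr1-null libraries, with 11.24 in the library labelled control 10 weeks 1. The Tfr1-null values were more than 1 log2 unit above the 3 controls, and the doubtful control lay among them. Sesn2 rose by 1.75 at 10 weeks (SE 0.17, limma adjusted p 0.000186) and by 1.08 at 3 weeks (SE 0.17, adjusted p 0.00658). Ddit4, another inhibitor of mTORC1, rose by 1.08 at 10 weeks (SE 0.283, adjusted p 0.0336). Of 17 measured genes of 20 lysosomal genes with TFEB sites, none was called at 3 weeks. At 10 weeks Scpep1, a serine carboxypeptidase, rose by 1.17 (SE 0.2, limma adjusted p 0.00491). It was 1 of the 17 (5.88%), against 4.73% of all genes called higher.

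Leaving out each of the 12 libraries in turn, an alternative chosen after seeing the data, kept the calls of Bnip3 and Sesn2 at both ages and of Tmem41b and Scpep1 at 10 weeks in every fit. The call of Tmem41b at 3 weeks was lost without any one library of that age (limma adjusted p 0.0796 to 0.122). Atg16l2 was lost without control 10 weeks 3 (-0.60, adjusted p 0.0516), and Ddit4 and Tollip each kept their call in 2 of 12 fits. At 3 weeks Scpep1 passed without control 10 weeks 4 (0.61, adjusted p 0.0381), a library that enters that test through the shared spread.

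**Figure D4:**
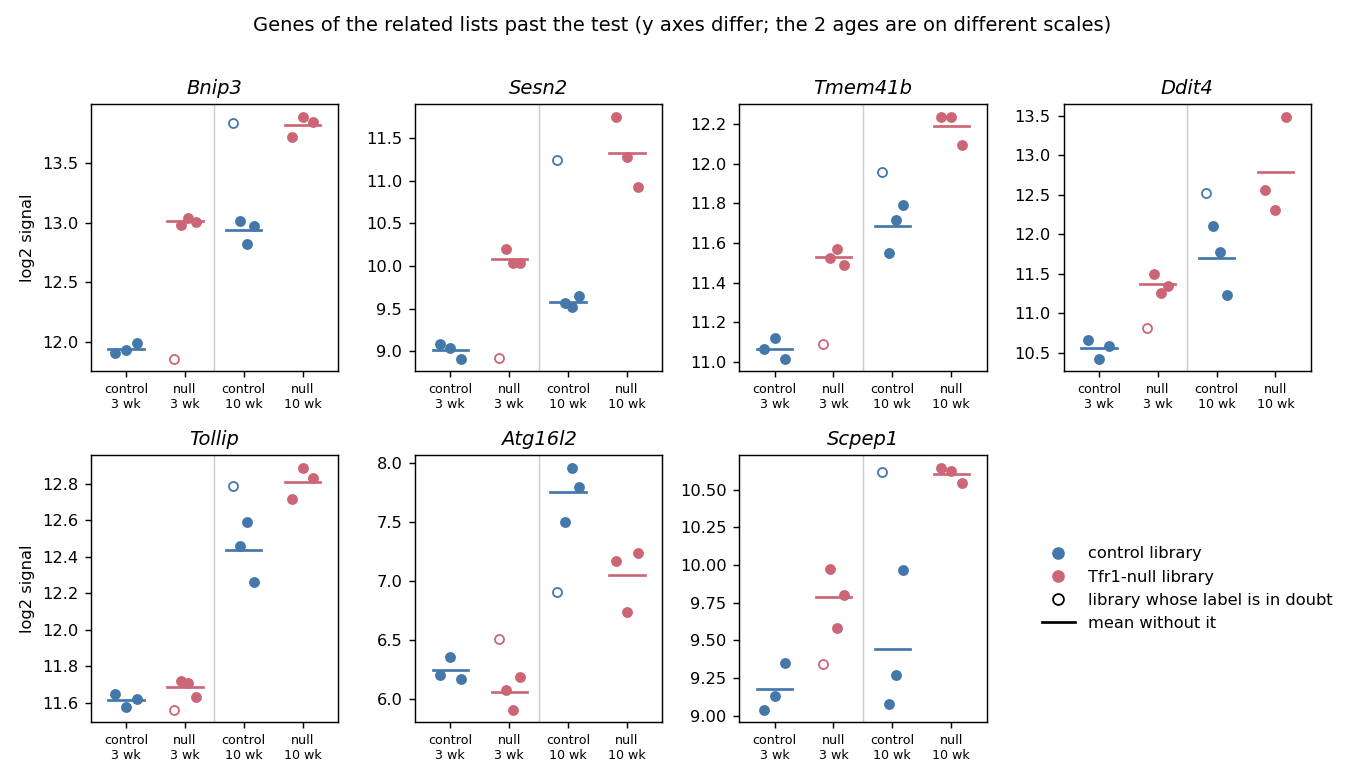
Log2 signal in every library of the 7 related genes that passed the test with 12 libraries, control in blue and Tfr1-null in red. Open circles are the 2 libraries whose labels are in doubt and bars are the means without them. For Bnip3 at 3 weeks the 3 other Tfr1-null libraries lie between 12.98 and 13.04 and the controls between 11.91 and 11.99.

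Markers of the cell types the pulldown could hold were read in the same libraries. With 12 libraries the mean log2 signal of 8 dopaminergic markers lay between 12.49 and 12.82 in Tfr1-null libraries and between 12.84 and 13.32 in controls at 10 weeks, and between 11.90 and 11.99 against 12.10 and 12.12 at 3 weeks. The groups did not overlap at either age, and fewer dopaminergic neurons and less RNA per neuron cannot be told apart in such samples. At 10 weeks the mean of 8 astrocyte markers lay between 9.92 and 10.42 against 9.57 and 10.27, of 9 microglial markers between 7.77 and 8.13 against 7.55 and 7.98, and of 3 GABAergic markers between 11.13 and 11.62 against 10.87 and 11.21, with overlap in each. For 7 oligodendrocyte markers the ranges were 11.00 to 11.75 against 11.04 to 11.99, for 7 endothelial and pericyte markers 7.47 to 7.65 against 7.20 to 7.52, and for 2 glutamatergic markers 8.05 to 9.16 against 8.81 to 9.71. At 3 weeks with 12 libraries the endothelial and pericyte mean lay between 6.63 and 6.81 in Tfr1-null libraries. It lay between 6.83 and 7.22 in controls, without overlap, and the library labelled Tfr1-null 3 weeks 1 read 7.33. The other sets outside dopaminergic neurons overlapped at that age. No marker lay under the 25th percentile in every library of a group. Among the markers limma called Ddc lower by -0.32 (adjusted p 0.0488), and Sox9 higher by 1.14 (adjusted p 0.0327) and Slc32a1 higher by 0.70 (adjusted p 0.0071) at 10 weeks. The 3′ minus 5′ signal of Gapdh is a sign of RNA quality. At 10 weeks it lay between 0.57 and 0.66 in Tfr1-null libraries and 0.61 and 0.71 in controls, with overlap. At 3 weeks it lay between 0.56 and 0.60 in Tfr1-null 3 weeks 2, 3 and 4. The controls of that age lay between 0.63 and 0.74, without overlap, and the library labelled Tfr1-null 3 weeks 1 read 0.71. The part of RNA quality in the differences at 3 weeks was not tested. The part of cell makeup in the falls of Atg10, Atg7 and Fundc1 was not tested.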

How the data were processed

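Per the labels, the submitters amplified RNA from the ribosome pulldown and hybridized it to Affymetrix mouse arrays, and the submitters' processing notes name Partek 6.5 and RMA. The values deposited by the authors are log2 signals after RMA and were used as they stand; positions of the probe sets on the genome were not used here. Of 45101 probe sets, 34958 had 1 gene symbol, 932 several and 9211 none. After 64 control probe sets were left out, 34945 probe sets covered 18193 genes, with 1 probe set for each gene, the brightest by its mean across the arrays.

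limma 3.58.1 in R 4.3.3 (lmFit, and eBayes with default settings) fitted the means of 4 groups with 1 spread per gene, with Benjamini-Hochberg adjustment across all genes, or across all probe sets where a probe set is named. An adjusted p under 0.05 counts as called. This left 10 residual degrees of freedom with 14 libraries and 8 with 12. Tables and figures were made in Python 3.11.15 (numpy 2.4.6, pandas 2.3.3, matplotlib 3.10.9).

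The members, the related lists and the pair of libraries left out were chosen with earlier results of these data known. Values in every library are given for the called members and those with the next smallest p at either age with 12 libraries, up to 10, and for further members chosen after their values were seen (Becn1, Tfe3, Tfeb). Another probe set is shown where 1 is called and the other is not, where signs differ and either is called, or where differences lie over 1 log2 unit apart. Among related genes, Pink1 and Ncoa4 were named after their values were seen. Alternatives were the mean of all probe sets, separate probe sets, a filter on dim genes, quantile normalization within each age, ages fitted alone, array weights, trended and robust moderation, a replicate block and leaving out each library.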

Additional observations from a re-analysis of the deposited data

Results flagged for a closer look

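Of 68 groups of 4 libraries tested over the members, 3 held a library far from the others, and chance flags about 1 in 20 groups. Becn1 in control 10 weeks 2 was 12.34, against 11.24 to 11.26 in the other controls of that age. Fundc1 in Tfr1-null 3 weeks 2 was 10.46, against 10.62 to 10.64 in the others. Tfeb in Tfr1-null 3 weeks 3 was 7.80, against 7.02 to 7.13 in the others.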

How the results depend on the processing

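The counts of called members stayed within 1.5 times of their value in 115 of 124 alternatives. All of these counts were 0 except the 3 at 10 weeks with 12 libraries, and a count of 0 stayed only where it remained 0. The count of 3 stayed within 1.5 times in 16 of 20 alternatives, where a count of 2 was taken as staying. At 10 weeks with 12 libraries the count of 3 became 6 with the mean of all probe sets (Atg5, Map1lc3a and Nbr1 added), 5 with the filter on dim genes and 5 with trended and robust moderation (Atg5 and Map1lc3b added in both), and 1 with each age fitted alone (Atg10, with Fundc1 at adjusted p 0.11 and Atg7 at 0.17); leaving out 1 library gave 2 to 4. At 10 weeks with 14 libraries the count of 0 became 1 with trended and robust moderation (Map1lc3b), and leaving out 1 library gave 0 to 4, with 4 (Atg10, Atg5, Fundc1 and Map1lc3b) without control 10 weeks 1. At 3 weeks array weights gave 1 with 14 libraries (Sqstm1) and 4 with 12 (Atg10, Atg12, Atg7 and Sqstm1), against 0. For the difference between ages with 12 libraries leaving out 1 library gave 0 to 1, with Atg5 called without control 10 weeks 2. In these the cause was not tested, except that the filter tests fewer genes.

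The replicate number as a block gave 2 called members at 10 weeks with 12 libraries, Atg10 and Fundc1, and Atg7 at -0.51 (adjusted p 0.1). Over all genes the block gave 1077 calls against 2015, and 3 against 220 with 14 libraries. The 220 calls also became 0 with each age fitted alone or with array weights, 86 with the mean of all probe sets, and 5 to 1924 when 1 library was left out, with 1924 without control 10 weeks 1 and 66 or fewer without each of 11 others; the cause was not tested. Deviations of same-numbered libraries correlated at -0.08 to 0.09, and those of differently numbered libraries at -0.14 to 0.11. These few correlations, with 3 or 4 libraries per group, cannot tell whether the numbers pair the samples.

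Some small differences that passed no test changed sign. Atg4d at 10 weeks with 14 libraries was 0.075 with the mean of all probe sets. Leaving out 1 library gave -0.105 to 0.0055 for Atg4d at 3 weeks and -0.0013 to 0.078 for Sqstm1 at 10 weeks, both with 14 libraries, and for Map1lc3b at 3 weeks -0.0374 to 0.0347 with 14 and -0.0352 to 0.0368 with 12. With 12 libraries at 10 weeks, the interval of 5 of 34 members reached a change of 1 log2 unit (Becn1, Atg2b, Atg5, Atg7 and Fundc1).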
